A study of Mus musculus with 3 samples.

Results

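Zic1, Zic2, Zic4 and Zic5 are 4 members of the Zic family, transcription factors with zinc fingers related to those of the Gli proteins that carry hedgehog signals. Of the 33696 genes in the matrices, these 4 were taken by their symbols. They were followed through single cells of mouse trunk between vertebral levels C3 and T2, with the forelimbs and thoracic organs removed, which leaves the neural tube together with tissue from somites and lateral plate. Each stage, E11.5, E12.5 and E13.5, is 1 library of cells from 3 littermates, made with the 10x Genomics 3′ kit, which reads the 3′ end of each transcript and counts molecules by unique molecular identifiers (UMIs). No treatment, allele or strain is given in the labels. Because a stage is a single library, values of different stages are set side by side without a test, and p-values below come only from differences between cell classes repeated over the libraries.

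In the developing neural tube, Zic genes are known for their activity in the dorsal part, in the roof plate and in the precursors next to it, and for keeping neural precursors dividing. In the somite and its derivatives they are known from the dorsal and medial compartments, and in the meninges, the membranes around the brain and spinal cord, Zic1 and Zic2 are known in the mesenchymal layer. The family lies in pairs. In the RefSeq annotation Zic1 and Zic4 are neighbours on chromosome 9, on opposite strands, and Zic5 and Zic2 lie on chromosome 14 on opposite strands, with the non-coding gene 2610035F20Rik between them. No stretch of 50 bases was shared between the annotated transcripts of any 2 of the 4 genes, so no stretch of that length is ambiguous between them.

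The 250 bases before the start of Zic1, Zic4 and Zic5 are shown because the members were found together in the same cells, as described below. Zic2 is named only. They are from RefSeq, build GRCm38.p6, read 5′ to 3′ on the strand of the gene. Capitals mark matches on either strand to 5 short motifs that were searched. These were CAGCAGG (bound by Zic proteins), GGGTGGTC (bound by Gli proteins), CCAAT (the CCAAT box), CACGTG (an E-box) and TATAAA (the TATA box).
Zic1 (chr9:91365769-91366018, minus strand): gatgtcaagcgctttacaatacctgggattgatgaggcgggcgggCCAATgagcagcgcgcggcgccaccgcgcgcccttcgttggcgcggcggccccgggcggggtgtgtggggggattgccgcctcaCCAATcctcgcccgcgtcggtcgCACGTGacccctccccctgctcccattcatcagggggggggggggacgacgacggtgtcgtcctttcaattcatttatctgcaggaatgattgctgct
Zic4 (chr9:91368722-91368971, plus strand): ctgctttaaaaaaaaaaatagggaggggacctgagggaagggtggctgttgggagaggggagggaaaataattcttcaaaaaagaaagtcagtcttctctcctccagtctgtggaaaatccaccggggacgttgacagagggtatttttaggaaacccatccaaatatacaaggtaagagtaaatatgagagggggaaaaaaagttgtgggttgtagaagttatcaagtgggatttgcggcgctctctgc
Zic5 (chr14:122465659-122465908, minus strand): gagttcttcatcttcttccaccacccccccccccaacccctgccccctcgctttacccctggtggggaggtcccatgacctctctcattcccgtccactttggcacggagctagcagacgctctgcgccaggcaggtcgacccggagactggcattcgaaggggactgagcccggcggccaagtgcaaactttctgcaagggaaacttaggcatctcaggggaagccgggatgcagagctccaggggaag
The Zic1 window held 2 CCAAT matches and 1 CACGTG match, motifs found in 33.9% and 6.02% of 32851 promoter windows of the same length. No match to the 5 motifs lay in the Zic4 or Zic5 windows. CAGCAGG was present in 8.44%, GGGTGGTC in 0.703% and TATAAA in 12.4% of all windows. The Zic1 window had 66% G and C and 27 CG dinucleotides, Zic5 62.4% and 11, and Zic4 44.4% and 4, beside medians of 52.4% and 6 over all windows.

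Cells were barcodes with at least 4000 UMIs, which gave 6334, 6201 and 7594 cells in order of stage, with medians of 12494, 11046 and 10261 UMIs. A cell was placed in the class whose marker list it held the largest part of, and no Zic gene is in any of the 30 lists. Classes are therefore named for their markers and are X-like cells rather than established types. Ties and cells below the minimum of markers, 944, 405 and 531 cells, were left without a class. Xist was detected in 66.0, 27.1 and 90.5% of cells, so the share of female cells differed between the pools and cannot be told apart from stage. Libraries shared 10 to 16 cell barcodes pair by pair. Levels are the summed UMIs of a gene over those of the class, on the usual CPM scale. Shares of cells were taken after every cell had been thinned to 4000 UMIs. Intervals are at 95% (Poisson for levels, Clopper-Pearson for shares) and cover counting error only. Fewer transcripts per cell and fewer cells with the gene both lower a CPM, which is why both values are given.

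Free RNA sets a floor under these values. Macrophage-like, erythroid-like and epidermis-like cells, where Zic expression is not known, held Zic1 at 2.12 to 16.0 CPM, Zic4 at 0.301 to 4.10 CPM, Zic2 at no more than 3.87 CPM and Zic5 at no more than 1.91 CPM. After thinning, 1.06 to 4.44% of these cells had a Zic1 UMI, at median depths of 11858 to 25801 UMIs before thinning. Droplets of 50 to 500 UMIs, far below the minimum for a cell, contained Zic1 at 109, 104 and 62.1 CPM in the 3 libraries. Levels no higher than those of the macrophage-like, erythroid-like and epidermis-like cells are read as background. Endothelial-like cells were not used for this floor, which would be higher with them. At E12.5, 38 endothelial-like cells held 24 Zic1, 17 Zic4 and 7 Zic5 UMIs, and their Zic1 level, given below, lay above the range of the 3 classes.

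Where the transcripts lay shifted between the libraries. Neural progenitor-like cells held 37.9, 15.4 and 2.25% of all Zic1 UMIs in order of stage, spinal neuron-like cells 7.12, 43.9 and 36.0%, and mesenchyme 36.5, 32.5 and 50.2%. Of the Zic5 UMIs, 64.3, 35.3 and 6.90% were in progenitor-like cells, more than of any other member at E11.5 and E12.5. At E13.5 this share rests on 18 UMIs, and its interval (4.14 to 10.7%) overlapped that of Zic4 (6.30%, 5.07 to 7.73%). Zic2 was the member with the largest part in mesenchyme, with 49.2, 58.9 and 68.8%. These shares follow the number of cells of each class in the library as well as the level per cell.

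Zic1 had the highest summed level of the 4 in neural progenitor-like cells (Sox2, Hes5, Fabp7) at every stage. In E11.5 its level was 335 CPM (interval 327 to 344, 1321 cells), in E12.5 439 CPM (420 to 458, 482 cells) and in E13.5 241 CPM (203 to 284, 74 cells). Zic4 had 86.7, 208 and 145 CPM in the same order, Zic5 63.7, 74.5 and 30.3 CPM and Zic2 42.2, 49.8 and 33.7 CPM. After thinning, a Zic1 UMI was seen in 53.1, 61.4 and 35.1% of these cells, whose median depths were 11432, 8376 and 7032 UMIs. Between E11.5 and E12.5 the intervals of Zic1 and Zic4 did not overlap, while those of Zic2 and of Zic5 overlapped.

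**Figure D1:**
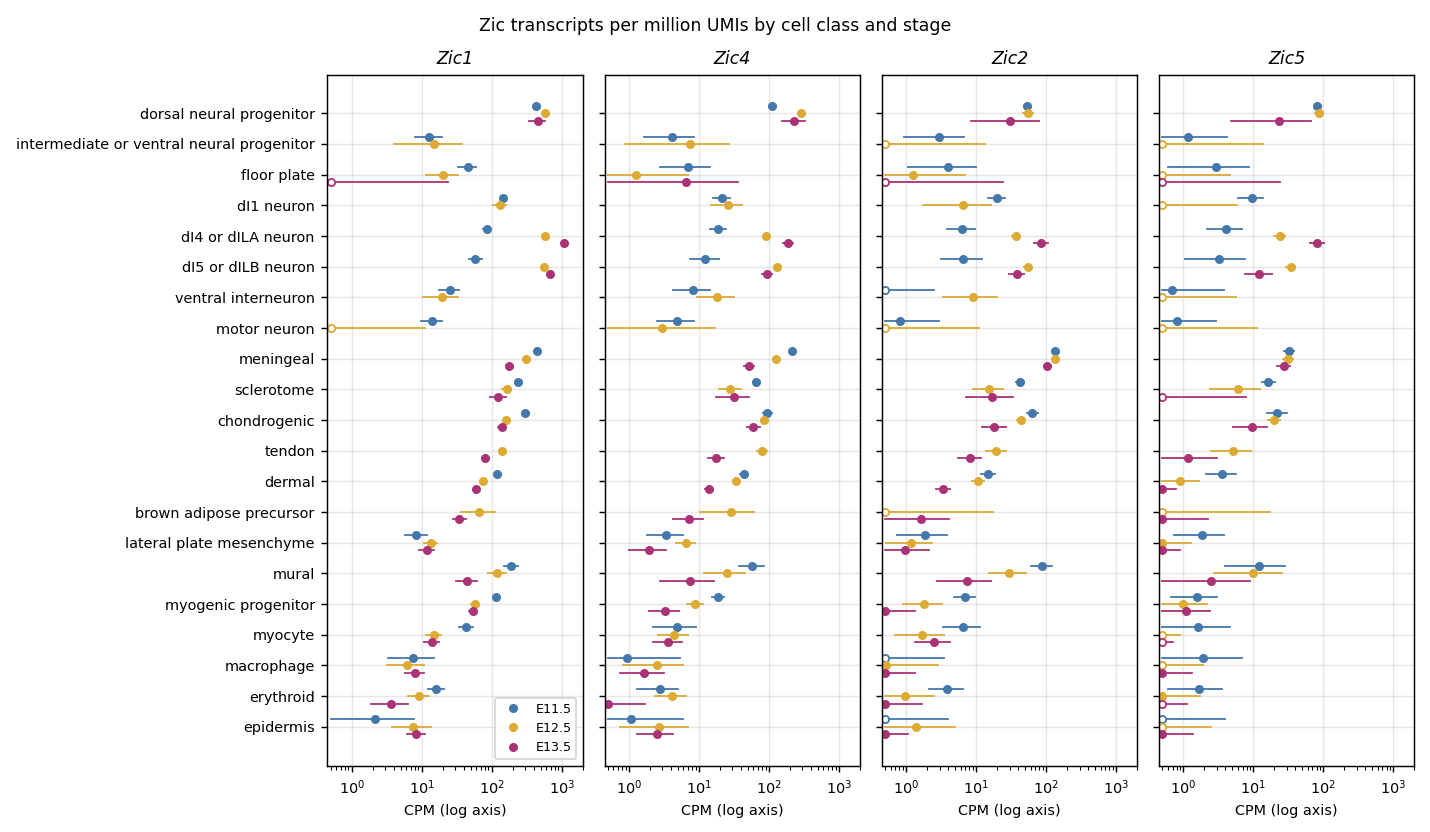
Levels of the 4 genes in CPM (log axis) in each cell class with at least 15 cells, with one panel per gene. Points are summed UMIs of each stage by colour, bars are 95% Poisson intervals, open points hold 0 UMIs, and values below the left edge are drawn at it. The highest Zic1 points lie in dorsal progenitor, dI4, dI5 and meningeal rows, up to 1065 CPM, and the macrophage, erythroid and epidermis rows at the bottom stay at or below 16.0 CPM.

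Within the neural tube the 4 genes were dorsal. Dorsal progenitor-like cells (Pax3, Pax7, Msx1, Olig3 and others) had 427 CPM (E11.5) and 588 CPM (E12.5) of Zic1, against 12.8 and 14.8 CPM in intermediate or ventral progenitor-like cells (Nkx6-1, Dbx1, Olig2, Nkx2-2 and others). Zic5 had 82.4 and 85.7 CPM in dorsal cells, against 1.17 CPM at E11.5 and 0 UMIs at E12.5 in the intermediate or ventral cells, where 3 UMIs would make 11.1 CPM. Levels in the intermediate or ventral cells lay in the range of the background classes over the 3 libraries for Zic1, Zic2 and Zic5, and for Zic4 reached 7.38 CPM (2 UMIs) at E12.5.

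The difference was tested over the E11.5 and E12.5 libraries, since E13.5 held only 11 intermediate or ventral cells. With edgeR's quasi-likelihood test and Benjamini-Hochberg adjustment over 10379 genes, 0.819% of which were called higher and 1.49% lower in dorsal cells (2.31% in all), all 4 members passed. Zic1 was higher by 5.15 on the log2 scale (SE 0.23, adjusted p = 2.4e-06), Zic4 by 4.92 (SE 0.30, adjusted p = 1.3e-05), Zic2 by 4.46 (SE 0.45, adjusted p = 0.00038) and Zic5 by 6.36 (SE 0.46, adjusted p = 4.6e-05). The fitted values of Zic2 and Zic5 depend on the prior count, since the intermediate or ventral cells held 5 and 2 UMIs at E11.5 and none at E12.5. Each SE was worked back from the fitted difference and the F statistic of the test, with 1 residual degree of freedom. It does not give the counting error. From counts alone, the E11.5 log2 ratios had exact intervals of 4.46 to 5.73 (Zic1), 3.70 to 6.07 (Zic4), 2.98 to 5.84 (Zic2) and 4.29 to 9.19 (Zic5). Without the library as a term Zic4 lost the call (5.40, adjusted p = 0.0543). Of the Gli and Glis relatives, 3 of 6 were tested and Gli3, the repressor-forming Gli protein, was the 1 that passed, at 1.11 (adjusted p = 0.039). Of 12 hedgehog pathway genes 9 were tested, with a median of 0.46 beside 0.02 over all genes. Gas1, a co-receptor, was higher (2.36, adjusted p = 0.00023), as was Gli3, while Ptch1 and Hhip, a receptor and a binding protein that are both targets of the pathway, were lower in dorsal cells (log2 difference -1.45, adjusted p = 0.0018, and -2.27, adjusted p = 0.047).

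Among all neural progenitor-like cells the level was higher in cells that held more dorsal markers, up to 3 markers for all 4 genes and in the last bin not for all. At E11.5, Zic1 stood at 53.9 CPM in cells with none, 194 with 1, 342 with 2, 411 with 3 and 506 with 4 or more. At E12.5 the same bins gave 26.5, 334, 476, 619 and 661 CPM. Zic5 at E11.5 had 6.99, 24.2, 43.0, 88.9 and 121 CPM, so that from 1 marker to 4 or more it multiplied by more than Zic1 did. At E12.5, Zic2 had 72.0 CPM at 2 markers, 78.4 at 3 and 63.4 at 4 or more, and these intervals overlapped. Between 3 markers and 4 or more, Zic4 (298 and 294 CPM) and Zic5 (118 and 117 CPM) did not increase at E12.5 either. Bins hold 79 to 322 cells of 1 library each, and no test was made across cells.

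**Figure D2:**
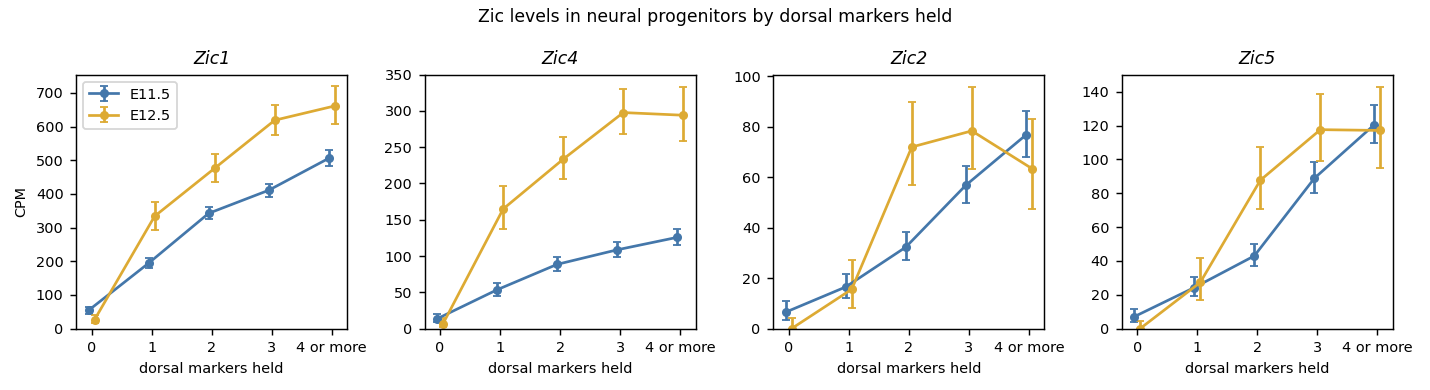
Level in CPM of each gene in neural progenitor-like cells, binned by how many of the 8 dorsal markers they hold, at E11.5 and E12.5. Bars are 95% Poisson intervals. Zic1 at E11.5 runs from 53.9 to 506 CPM, while at E12.5 Zic2 changes little from 2 markers on and Zic4 and Zic5 from 3 on.

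The 18 and 10 roof plate-like cells of the earlier libraries (Lmx1a, Wnt1, Gdf7 and others) stood apart by the chromosome 14 pair. Zic2 had 110 CPM at E11.5 (interval 73.3 to 159) and 339 CPM at E12.5 (257 to 439), and Zic5 had 185 (136 to 246) and 422 CPM (330 to 533). Dorsal progenitor-like cells had Zic2 at 53.9 and 54.9 CPM and Zic5 at 82.4 and 85.7 CPM, below those intervals. Zic1 was 303 CPM (239 to 379) and 470 CPM (372 to 586) in roof plate-like cells, below the dorsal progenitor-like interval at E11.5 and overlapping it at E12.5. Floor plate-like cells, the ventral midline, had Zic1 at 45.4 CPM at E11.5 and 20.1 CPM at E12.5, with a Zic1 UMI in 5.13 and 1.56% of 78 and 64 thinned cells. This class is loosely defined, with Dcn among its leading genes, a mesenchymal gene.

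Single genes that mark states of progenitors went with Zic1 in the same cells. Progenitor-like cells with a UMI of Olig3, a factor of the most dorsal domains, had Zic1 in 89.3% of 131 cells at E11.5, against 49.1% of 1190 cells without it. Cells with Mki67, a protein of dividing cells, had Zic1 in 65.2% (E11.5) and 79.8% (E12.5), against 46.9 and 55.7% of cells without Mki67. With Neurog2, a factor that drives cells to become neurons, the shares ran the other way, 29.8 and 43.5%, against 56.7 and 63.3% without. With Pax7, a dorsal factor, the share at E11.5 was 52.4%, against 53.2% without, and the intervals overlapped. The summed levels lay in the same order as the shares for Olig3, Mki67 and Neurog2.

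In neurons the 3 libraries lay in another order than in progenitors. Spinal neuron-like cells (Stmn2, Tubb3, Elavl3) had Zic1 at 78.6 CPM (interval 74.0 to 83.4, 1232 cells) in the E11.5 library, 467 CPM (455 to 479, 1393 cells) in the E12.5 one and 758 CPM (728 to 790, 454 cells) in the E13.5 one. The thinned share with a Zic1 UMI was 19.1, 58.1 and 73.3%, at median depths of 9505, 7955 and 6104 UMIs. Zic4 stood at 14.8, 91.7 and 117 CPM, Zic2 at 9.30, 37.3 and 54.0 CPM and Zic5 at 5.38, 22.5 and 33.5 CPM. All 4 genes were lowest in the E11.5 library and highest in the E13.5 library. This pooled class was a different mixture in each library. It held 339, 631 and 132 dI4 or dILA and 124, 512 and 271 dI5 or dILB neuron-like cells in order of stage. How much of the order of the pooled levels comes from the mixture was not tested.

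Among the neuron classes, dI4 and dI5 neuron-like cells, those of the dorsal horn, had the highest Zic1 levels at E12.5, though not at E11.5. In dI4 or dILA neuron-like cells, the inhibitory class marked by Pax2, Lbx1 and Gad1, Zic1 was 85.5, 569 and 1065 CPM at the 3 stages, and in dI5 or dILB neuron-like cells, the excitatory class marked by Tlx3 and Lmx1b, 58.7, 564 and 679 CPM. The 10 leading genes of the dI5 class include the haemoglobin genes Hbb-bs, Hbb-bt, Hba-a1 and Hba-a2. Those of dorsal progenitor-like cells include Hba-a1 and Hba-a2. The source of these haemoglobin UMIs was not tested. Ventral interneuron-like cells had 25.2 CPM (E11.5) and 19.6 CPM (E12.5), and motor neuron-like cells had 13.9 CPM at E11.5 and 0 UMIs in 15 cells at E12.5, where 3 UMIs would make 9.05 CPM. dI1 neuron-like cells, which arise next to the roof plate, had 144 CPM at E11.5 and 130 CPM at E12.5, and these intervals overlapped. Zic1 in dI1 was above the other 4 neuron classes at E11.5 (dI4, dI5, ventral and motor) and below dI4 and dI5 at E12.5. For dI4 the order at E11.5 depends on how the class is defined, since 207 of its 339 cells had no Lbx1 UMI after thinning. The 132 cells with one had Zic1 at 166 CPM, with an interval of 143 to 191 that includes the dI1 value. At E13.5 dI4 lay above dI5 for all 4 genes, and for Zic5 the levels were 82.3 CPM (64.8 to 103) and 12.1 CPM (7.48 to 18.5). In dI4 or dILA neuron-like cells with an Lbx1 UMI, Zic1 was 166, 645 and 1281 CPM, against 39.2, 507 and 807 CPM in those without, so the difference between stages was present within Lbx1-positive cells.

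Set against each other over the 3 libraries, progenitor-like cells and neuron-like cells gave no call for any member, while of 13260 genes 16.2% were called higher and 18.6% lower, 34.8% in all. The log2 ratio of Zic1, progenitor over neuron, was 2.09, -0.09 and -1.65 in order of stage, and that of Zic2 was 2.18, 0.42 and -0.68. Zic4 gave 2.55, 1.18 and 0.30 and Zic5 3.56, 1.73 and -0.14. Both pooled classes were different mixtures of subclasses in each library, as given above. edgeR's fitted differences were 0.10 for Zic1 (SE 0.72, adjusted p = 0.93), 1.35 for Zic4 (SE 0.43, adjusted p = 0.058), 0.76 for Zic2 (SE 0.53, adjusted p = 0.31) and 1.89 for Zic5 (SE 0.66, adjusted p = 0.072). At an unadjusted p under 0.05, Zic4 and Zic5 passed, and DESeq2 on the same sums called those genes, with adjusted p = 0.00994 for Zic4 and adjusted p = 0.0165 for Zic5. Without the E11.5 library, edgeR put Zic1 lower in progenitors by 0.84 on the log2 scale (adjusted p = 0.0283) and called Zic4 and Zic5 higher. In the same contrast 2 of 3 tested Gli and Glis relatives, Gli3 (2.96) and Gli2 (2.48), were higher in progenitors, as were 9 of 11 hedgehog pathway genes (median 2.48), 11 of 12 Notch genes (3 of the 12 being class markers) and 15 of 15 S phase genes (median 2.13), beside a median of -0.03 over all genes.

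**Figure D3:**
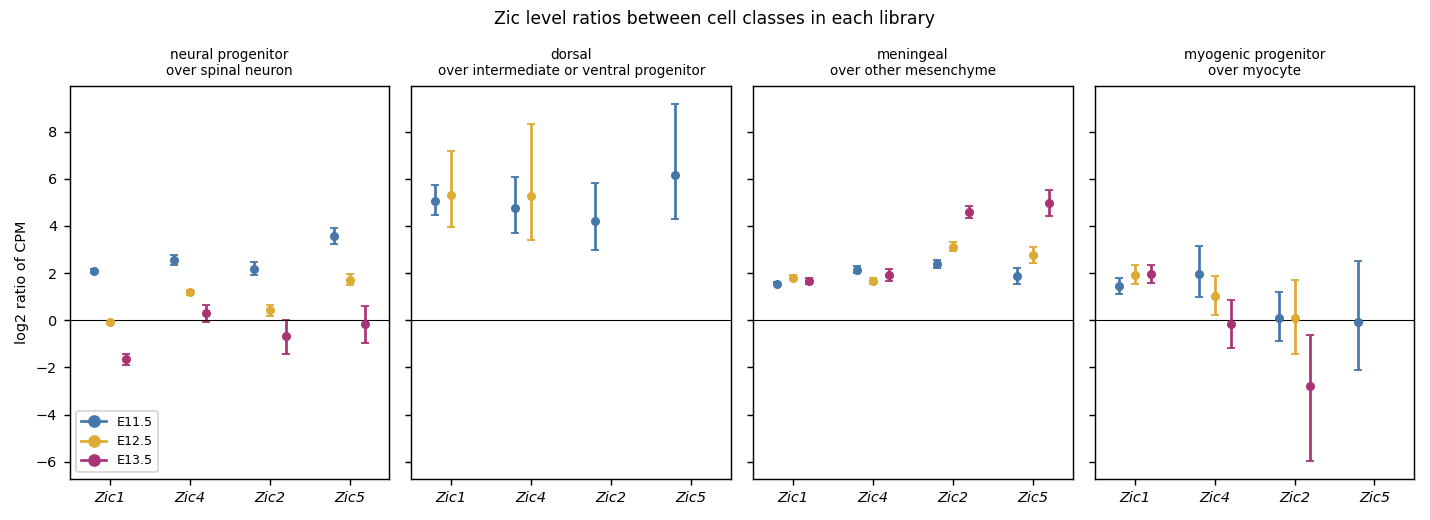
Log2 ratio of CPM in each library for the 4 class contrasts, with 95% exact intervals. A line marks 0, ratios with 0 UMIs on either side are left out, and the Zic1 points in the first panel run from 2.09 at E11.5 to -1.65 at E13.5 while those of the meningeal panel stay between 1.56 and 1.81.

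In mesenchyme, meningeal-like cells (Foxc1, Foxd1, Aldh1a2 and others) had higher levels of all 4 genes than the rest of the mesenchyme, though Zic4 at E13.5 was higher in chondrogenic-like cells (59.9 CPM, interval 48.1 to 73.7, overlapping the meningeal one). Zic1 was 451, 311 and 176 CPM in order of stage in 349, 391 and 265 meningeal-like cells, against 153, 88.8 and 55.4 CPM in the other mesenchyme. Zic4 was 215, 128 and 52.0 CPM, against 48.5, 40.5 and 13.8 CPM. Zic2 was 133, 134 and 104 CPM, against 25.4, 15.4 and 4.31 CPM, and Zic5 was 32.6, 31.0 and 27.0 CPM, against 8.80, 4.61 and 0.866 CPM. In each library the meningeal-like value exceeded the other for all 4 genes.

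With edgeR's quasi-likelihood test over the 3 libraries, all 4 members were higher in meningeal-like cells, beside 3.91% of 13861 genes called higher and 3.68% lower (7.59% in all). The differences were 1.64 for Zic1 (SE 0.07, adjusted p = 0.00067), 1.87 for Zic4 (SE 0.10, adjusted p = 0.0012), 3.26 for Zic2 (SE 0.38, adjusted p = 0.0075) and 2.95 for Zic5 (SE 0.50, adjusted p = 0.022). Without the E12.5 library Zic2 and Zic5 lost the call at differences of 3.38 (adjusted p = 0.0533) and 3.17 (adjusted p = 0.118). Without the library as a term none of the 4 was called, with adjusted p = 0.434 for Zic1, adjusted p = 0.499 for Zic4, adjusted p = 0.213 for Zic2 and adjusted p = 0.413 for Zic5. The log2 ratio of Zic2 was 2.38, 3.13 and 4.59 over the stages and that of Zic5 1.89, 2.75 and 4.96, while those of Zic1 stayed between 1.56 and 1.81. Of 11 tested retinoic acid genes 4 were higher (median of the list 0.07, of all genes -0.01), among them Dhrs3, a retinaldehyde reductase, by 2.16 (adjusted p = 0.0030) and Rarb, a receptor, by 0.91 (adjusted p = 0.026). The other 2, Aldh1a2 and Rdh10, are markers of the class. None of the 6 Gli and Glis genes was called, and 8 of 15 S phase and 9 of 15 G2 and M phase genes were lower.

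Among the other mesenchymal classes, Zic1 was 238, 163 and 124 CPM in sclerotome-like cells (Pax1, Pax9), the precursors of the vertebrae, and 299, 160 and 140 CPM in chondrogenic-like cells (Col2a1, Acan). The other members were lower in sclerotome-like cells, with Zic4 at 65.6, 28.0 and 31.6 CPM and Zic2 at 42.8, 15.3 and 16.8 CPM. Zic5 there had 16.4 and 5.94 CPM in the earlier libraries and 0 UMIs in 49 cells of E13.5, where 3 UMIs would make 6.31 CPM. Tendon-like cells had Zic1 at 142 CPM in E12.5 and 81.1 CPM in E13.5, and dermal-like cells 118, 74.1 and 60.1 CPM. Lateral plate-like cells (Tbx5, Emx2, Hand2) had 8.41, 13.6 and 11.9 CPM, within the range of the background classes over the 3 libraries, though above those of the same library at both later stages. The order meningeal, chondrogenic, sclerotome, dermal, lateral plate held in E11.5, and in both later libraries the chondrogenic and sclerotome intervals overlapped. Of mesenchymal cells tied between chondrogenic and meningeal lists at E11.5, the 77 cells had Zic1 at 495 CPM, and the 37 tied between sclerotome and meningeal lists had 321 CPM. Both groups were outside the meningeal contrast, and both values lay above the other mesenchyme of that contrast (153 CPM).

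Cells holding brown adipose precursor markers (such as Pparg, Cebpa and Ebf2) had Zic1 at 34.6 CPM at E13.5 (interval 27.7 to 42.8, 184 cells), with a UMI in 10.9% of thinned cells, above the background classes of that library at 3.61 to 8.42 CPM and 1.06 to 2.24%. Zic1 is a gene often used to mark brown fat in adult tissue. Dermal-like cells of E13.5 had 60.1 CPM and 15.9%, so Zic1 was not highest in the adipose precursor class. In all mesenchyme of E13.5, cells with a Pparg UMI, a fat regulator, had Zic1 in 4.24% of 118 cells, against 16.6% of 4499 without, and cells with Ebf2, a brown fat regulator, in 11.6%, against 18.4%.

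Mesenchymal cells were also split by single other genes, most of which are markers of the classes. Cells with Foxd1 had Zic1 in 56.3, 46.6 and 36.9% at the 3 stages, against 19.4, 17.6 and 14.6% of cells without it. With Foxc2, on both the meningeal and sclerotome lists, the shares were 60.5, 47.8 and 55.5%, against 28.7, 20.5 and 15.3%. Other sclerotome markers differed. With Pax9 the shares were 42.9, 37.1 and 29.6%, against 33.0, 22.5 and 15.9%. With Pax1 they were 30.3, 24.5 and 20.2%, against 34.8, 23.1 and 16.1%, with overlapping intervals. With Meox1 they were 31.5, 15.7 and 16.4%, against 34.5, 24.2 and 16.3%. The summed level with Pax1 was 176, 97.2 and 80.4 CPM, against 232, 123 and 61.7 CPM without. Cells with Tbx5, the forelimb and lateral plate factor, had Zic1 in 0.474, 3.3 and 2.40%, against 38.7, 26.2 and 17.7% without. With Hand2 the shares were 3.88, 4.17 and 1.90%, against 36.5, 24.6 and 17.2%. The shares with Mki67 overlapped those without it, at 35.4, 24.7 and 16.0%, against 33.6, 23.0 and 16.3%. The summed levels were 231, 139 and 62.4 CPM with Mki67, against 219, 117 and 62.7 CPM without, and their intervals were apart at E12.5 alone.

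**Figure D4:**
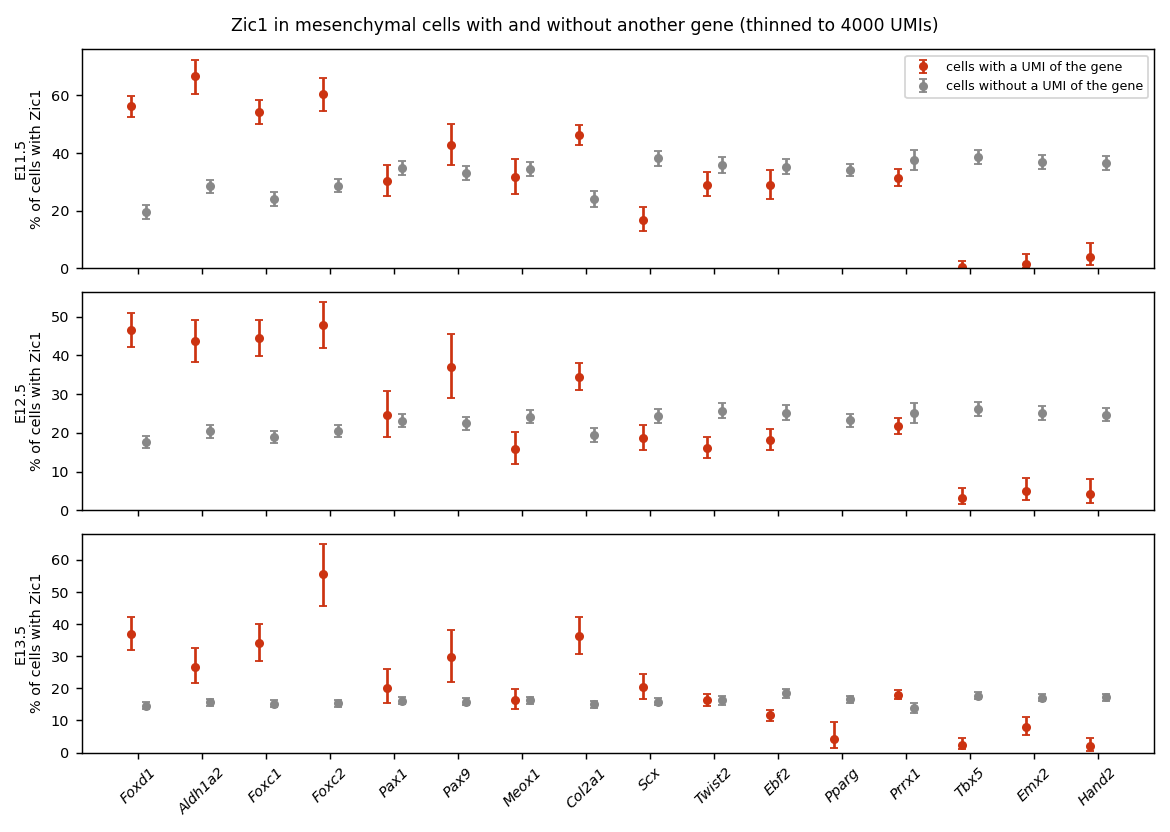
Share of thinned mesenchymal cells with a Zic1 UMI among cells with (left point of each pair) and without (right) a UMI of another gene, one panel per stage, with 95% Clopper-Pearson intervals. At each stage the pairs of Foxd1, Aldh1a2, Foxc1 and Foxc2 lie with the left point higher, and those of Tbx5, Emx2 and Hand2 with it lower.

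Muscle cells held mainly Zic1. Myogenic progenitor-like cells (Pax7, Pax3, Myf5) had 116, 57.1 and 53.4 CPM at the 3 stages, against 42.8, 14.9 and 13.9 CPM in myocyte-like cells (Myog, Actc1, Acta1). edgeR's quasi-likelihood test put Zic1 higher in myogenic progenitor-like cells by 1.62 (SE 0.12, adjusted p = 0.00019), where 17.3% of 11392 genes were called higher and 16.7% lower (34% in all). Zic4 (0.82, SE 0.39, adjusted p = 0.15) and Zic2 (-0.61, SE 0.53, adjusted p = 0.41) did not pass, and Zic5 had too few counts to be tested. Without the E13.5 library Zic4 gained the call (1.28, adjusted p = 0.0392), and without the library as a term Zic1 missed it (adjusted p = 0.0505). Mural-like cells (Rgs5, Kcnj8), the cells around vessels, had Zic1 at 191, 119 and 43.7 CPM in 22, 27 and 40 cells, while endothelial-like cells had 2.21, 22.8 and 5.42 CPM.

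Members were often detected in the same cells. Among neural progenitor-like cells with a Zic1 UMI, Zic4 was found in 41.7, 62.8 and 65.4% at the 3 stages, against 7.10, 7.53 and 8.33% of those without Zic1. In spinal neuron-like cells Zic4 was found in 23.0, 36.8 and 31.2% of Zic1-positive cells, against 2.11, 4.29 and 4.13%. In mesenchyme the shares were 53.7, 39.1 and 19.7%, against 2.95, 4.99 and 2.43%. In meningeal-like cells alone they were 66.7, 52.3 and 37.8%, against 5.63, 5.53 and 5.14%. For the chromosome 14 pair, Zic5 was found in 50, 64.7 and 66.7% of Zic2-positive neural progenitor-like cells, against 11.9, 7.89 and 1.54% of Zic2-negative ones. All 4 were seen together in 3.56, 5.19 and 4.05% of progenitor-like cells, and in 0.162, 3.3 and 3.52% of spinal neuron-like cells. Cells within a class differ in level, and this was not separated from pairing of the genes.

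The ratio of the chromosome 14 genes differed between tissues. Neural progenitor-like cells had 1.51 Zic5 UMIs per Zic2 UMI (interval 1.37 to 1.66) in the E11.5 library, 1.5 (1.26 to 1.77) in E12.5 and 0.90 in E13.5, where 18 and 20 UMIs gave an interval of 0.449 to 1.79. Spinal neuron-like cells had 0.578, 0.603 and 0.620. At E13.5 this pooled value held dI4 or dILA neuron-like cells at 0.962 (0.691 to 1.34) and dI5 or dILB neuron-like cells at 0.318 (0.185 to 0.527). Mesenchyme had 0.292, 0.254 and 0.233, and meningeal-like cells 0.246, 0.231 and 0.260. Other mesenchymal classes differed, with chondrogenic-like cells at 0.347, 0.449 and 0.519 and dermal-like cells at 0.237, 0.083 and 0.127. At E12.5 the chondrogenic interval (0.350 to 0.573) overlapped that of spinal neuron-like cells (0.519 to 0.700). Among progenitors, pooled neurons and all mesenchyme the progenitor value was highest and the mesenchymal lowest in each library, and at E11.5 and E12.5 the 3 intervals did not overlap. For the chromosome 9 pair, neural progenitor-like cells had 0.259, 0.473 and 0.601 Zic4 UMIs per Zic1 UMI, spinal neuron-like cells 0.189, 0.196 and 0.155, and mesenchyme 0.387, 0.442 and 0.259. Meningeal-like cells had 0.294, 0.432 and 0.592 Zic2 UMIs per Zic1 UMI, against 0.126, 0.113 and 0.140 in neural progenitor-like cells and 0.118, 0.0799 and 0.0712 in spinal neuron-like cells. Both genes of a ratio are counted in the same cells, and capture of their 3′ ends can differ between genes, so the ratios compare classes and not molecules per cell.

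**Figure D5:**
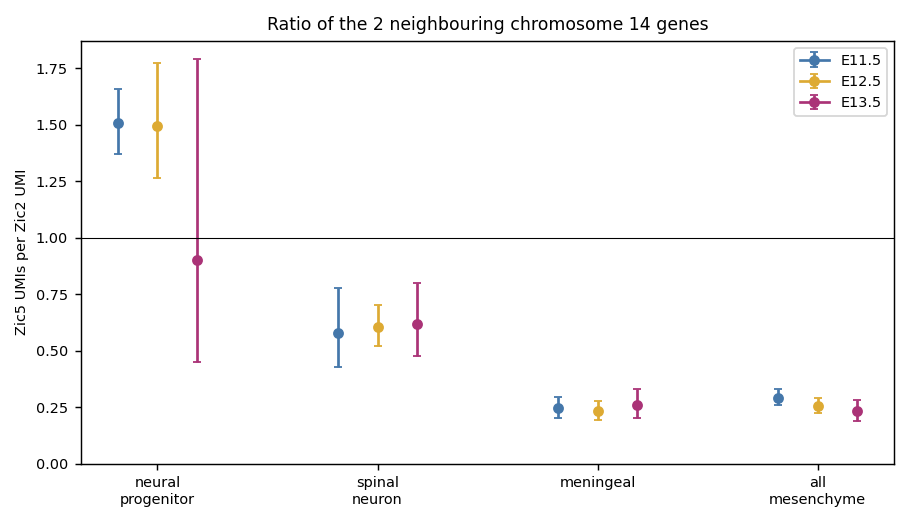
Zic5 UMIs per Zic2 UMI in 4 groups of cells at the 3 stages, with 95% exact binomial intervals and a line at 1. Progenitor-like points at E11.5 and E12.5 lie at 1.51 and 1.5, neurons between 0.578 and 0.620 and mesenchyme between 0.233 and 0.292.

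Over 55 class and stage sums of at least 50 cells, which share libraries and classes, the Pearson correlation of log2(CPM + 1) was 0.944 between Zic1 and Zic4, 0.891 between Zic2 and Zic5 and 0.890 between Zic2 and Zic4. The other 3 pairs of members lay between 0.831 and 0.855. Outside the members and the class markers, Gm56769, a gene without a described role, was nearest to all 4, at 0.965 for Zic2, 0.888 for Zic5, 0.864 for Zic4 and 0.817 for Zic1. After it came Hoxd3 and Gsdme for Zic1 (0.708 and 0.701), Aff2 and Gm29478 for Zic4 (0.752 and 0.715), Gm29478 and Gm10837 for Zic2 (0.699 and 0.679) and 2610035F20Rik and Gm10837 for Zic5 (0.785 and 0.771). Both Gm29478 and 2610035F20Rik are neighbours in the RefSeq annotation of members, Gm29478 next to Zic4 and 2610035F20Rik between Zic5 and Zic2, and reads of adjacent transcripts could be shared.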

How the data were processed

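The deposited UMI counts of 3 libraries were used. The authors made them with Cell Ranger 8.0.1 on GRCm39, per the submitters' processing notes and file headers, and the deposited matrices list every barcode. Which annotation release they used is not stated in the sources. A barcode was a cell at 4000 UMIs or more. A marker was held when its level in the cell exceeded the gene's mean over cells. Classes needed 3 markers (neural subclasses 2), and ties were left out. This rule was set after the files were seen. No doublet caller was run, and cells over 40000 UMIs were left out as an alternative. Levels and shares were computed in Python 3.11.15 with numpy 2.4.6, scipy 1.17.1 and pandas 2.3.3. edgeR 4.0.16 tested UMIs summed per class and library with its filter on low counts, TMM scaling and the library as a term, because both classes of a library come from the same pool. DESeq2 1.42.0 was an alternative. Genes were called at an adjusted p under 0.05. The SE printed with each edgeR difference was worked back from that difference and the F statistic of the test. Classes needed 20 cells in a library to enter a test. The named genes are the 4 members, the 5 genes nearest to each by correlation without class markers, and examples from lists. The list examples, the partner genes and the ties named were chosen after their values were seen. The edgeR step was tested on simulated data. Members and lists were chosen with earlier results of these data known. A further family member is not analysed here.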

Additional observations from a re-analysis of the deposited data

Results flagged for a closer look

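For Zic1 and Zic2 the ratio of neural progenitor-like over spinal neuron-like cells had opposite signs in different libraries. The log2 ratio of Zic1 at E12.5 differed from that at E11.5 by -2.18, and at E13.5 from that at E11.5 by -3.75. The log2 ratio of Zic2 at E13.5 differed from that at E11.5 by -2.86 and from that at E12.5 by -1.10. Each stage is 1 library, so these differences were not tested. The mixture of subclasses within the progenitor-like and neuron-like cells also differed between the libraries.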

How the results depend on the processing

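With 8000 UMIs as the minimum, neural progenitor-like Zic1 was 411 CPM at E12.5 and 199.7 CPM at E13.5, and at E12.5 Zic2 was 60.0, Zic4 193 and Zic5 85.4 CPM. Leaving out cells over 40000 UMIs gave Zic2 41.1 and Zic5 65.4 CPM at E12.5, and subtracting free RNA gave Zic1 350 CPM at E11.5. Without the replicate block (the library as a term) progenitor minus neuron Zic1 turned to -0.35 (adjusted p = 0.738). The calls lost without it were dorsal Zic4 (5.40), meningeal Zic1 (1.62), Zic2 (3.02), Zic4 (1.92) and Zic5 (2.66) and myogenic Zic1 (1.62). Without it, genes called higher and lower numbered 11 and 16 (dorsal), 12 and 2 (meningeal) and 891 and 1093 (myogenic), against 85 and 155, 542 and 510, and 1966 and 1907 with it. DESeq2 called 51 higher and 90 lower (dorsal) and 976 higher (myogenic). Without a filter on low counts the numbers were 248 and 271 (dorsal) and 988 and 1240 (meningeal), and myogenic Zic4 passed (0.85). In progenitor minus neuron, Zic4 and Zic5 passed with DESeq2 (1.33 and 1.75) and without a filter (1.38 and 1.93).

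Leaving out 1 library gave, for progenitor minus neuron, Zic1 -0.84 (without E11.5) to 1.01, Zic2 0.011 (without E11.5) to 1.30, Zic4 0.78 to 1.86 and Zic5 1.06 to 2.61, where Zic4 and Zic5 passed without E11.5 and without E13.5. It called 927 (without E12.5) to 2517 higher and 1092 (without E12.5) to 2765 lower. For meningeal minus other mesenchyme it gave Zic2 2.72 to 3.75 and Zic5 2.28 to 3.61, with 95 (without E12.5) to 680 higher and 34 (without E12.5) to 492 lower (313 without E13.5). For the myogenic contrast it gave Zic4 0.35 to 1.28 and Zic2 -0.87 to -0.05 (without E13.5), with no fit of Zic2 without E11.5, with 829 to 2368 higher and 1058 to 2377 lower. The cause of these changes was not tested. The dorsal contrast has 2 libraries, so none could be left out, and requiring 1 marker more left it no value. Of 748 recomputed shares of cells and co-detection values 213 lay outside their interval. These were 181 of 375 without thinning and 32 of 344 with another random seed, and 0 of 29 with 1 marker more. Cells keep more UMIs without thinning, so shares rise by construction and that setting is no measure of stability. Of 1680 recomputed levels 167 moved out of their interval. By setting these were 62 of 316 with 1 marker more, 47 of 332 with 8000 UMIs as the minimum and 40 of 344 with free RNA subtracted. Leaving out cells over 40000 UMIs moved 17 of 344, and the filter on genes and mitochondrial UMIs 1 of 344. Of 45 recomputed Zic5 per Zic2 ratios 2 moved.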
